A study of Mus musculus with 18 samples.

Results

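Eosinophil granule and surface genes are a group of 9 genes: the granule protein genes *Prg2*, *Prg3* and *Epx*, the eosinophil-associated ribonuclease genes *Ear1*, *Ear2* and *Ear6*, and the surface receptor genes *Siglecf*, *Il5ra* and *Ccr3*. Each was found by its symbol in the table of normalized counts, which gave 9 of 62197 gene entries. *Ear2* shares its entry with *Ear3* and *Ear12*, and *Ear6* shares its entry with *Ear7*, so these values belong to merged entries. The genes were put together with normalized counts and fold changes of these same 18 libraries known. Their levels and differences are therefore given as a description, without p-values for single genes. Counts of these genes that passed a p threshold are given further on, and nothing is read from those counts. Eosinophils are granulocytes that develop in bone marrow from progenitors under the control of the transcription factor GATA-1 and of the cytokines IL-5, IL-3 and GM-CSF. Their secondary granules store basic proteins, a peroxidase and ribonucleases, which are transcribed mainly while the cells mature. At the surface, eosinophils carry the IL-5 receptor, the eotaxin receptor CCR3 and the lectin Siglec-F, although Siglec-F is also found on alveolar macrophages and CCR3 also on basophils.

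The libraries were made from mouse bone marrow-derived DCs, which were cultured for 10 days with GM-CSF from transfected J558 cells. DCs of cPLA_2_ wild-type (cPLA_2_ WT) or cPLA_2_-knockout (cPLA_2_ KO) genotype were left nonconfined and collected when the culture ended, or were confined to 3 µm and collected 4 h later, or received 100 ng/ml LPS for 30 min and were kept until the next day. With 3 libraries in each of 6 conditions, 18 bulk RNA-seq libraries were compared. The comparisons ask how confinement changes transcription and whether cPLA_2_, a phospholipase that responds to deformation of the nucleus, is needed for this. According to the Methods of the study, the knockout came from mice with a floxed *Pla2g4a* made by CRISPR and crossed to *Itgax*-cre. Controls were described as littermates or age-matched mice. Sex, age and animal of origin of each library are not given in the labels. A figure legend of the study calls the replicates biological, and its statement on replication speaks of independent experiments, but the labels do not tie libraries to cultures or animals, so p-values measure only the spread between these libraries, which may be in part technical. Semiadherent cells were used and nonadherent granulocytes were discarded during culture. Treatment and time of collection cannot be told apart in the comparisons with confinement or with LPS. Reads on genes ranged from 33027230 to 61300021 per library, with a median of 40950398.

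*Pla2g4a*, which encodes cPLA_2_, was examined as a check of the genotype labels. Nonconfined cPLA_2_ WT libraries held 697, 686 and 770.4 normalized counts of *Pla2g4a*, and nonconfined cPLA_2_ KO libraries held 548, 542 and 533. In confined DCs the values were 1369, 1430.3 and 1321 for cPLA_2_ WT and 923, 871 and 919.5 for cPLA_2_ KO. Each of these cPLA_2_ KO libraries was below each cPLA_2_ WT library of the same treatment, but the transcript remained. In contrast, the LPS libraries labelled cPLA_2_ WT held 1005, 969 and 967 and the LPS libraries labelled cPLA_2_ KO held 1065, 1032 and 1028. After LPS each cPLA_2_ KO-labelled library was thus above each cPLA_2_ WT-labelled one, opposite to the order in the other treatments. *Ddx3y*, a gene of the Y chromosome, was at 3.05, 0 and 1.97 normalized counts in nonconfined cPLA_2_ WT libraries and at 0, 1.72 and 2.37 in confined cPLA_2_ WT libraries, against 949, 981 and 874 and 1036, 920.2 and 948 in the corresponding cPLA_2_ KO libraries. The LPS libraries labelled cPLA_2_ WT held 1271, 0 and 662, and the LPS libraries labelled cPLA_2_ KO held 2.12, 1476 and 783. *Xist*, which is transcribed from the inactive X chromosome of female cells, ranged from 12153 to 33681 over the 18 libraries. Genotype and donor therefore cannot be told apart in the nonconfined and confined comparisons. The LPS libraries with the same label differed in *Ddx3y*, which does not mark the genotype, and mice of either sex were used in the study. Libraries with *Ddx3y* also held *Xist*, so that male and female transcripts were both present in them. Across all genes, the median chi-square per gene, in units of sampling noise, was 3.22 between the libraries labelled cPLA_2_ WT replicate 3 and cPLA_2_ KO replicate 3, and 3.28 between those labelled cPLA_2_ WT replicate 2 and cPLA_2_ KO replicate 1. It was 4.23 between those labelled cPLA_2_ WT replicate 1 and cPLA_2_ KO replicate 2. The other LPS pairs across labels ranged from 4.77 to 8.41, and LPS pairs with the same label ranged from 4.12 for cPLA_2_ KO replicates 2 and 3 to 8.46 for cPLA_2_ WT replicates 1 and 2. No pair within a treatment was below 2.82, so no library was counted as a copy of another.

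**Figure D1:**
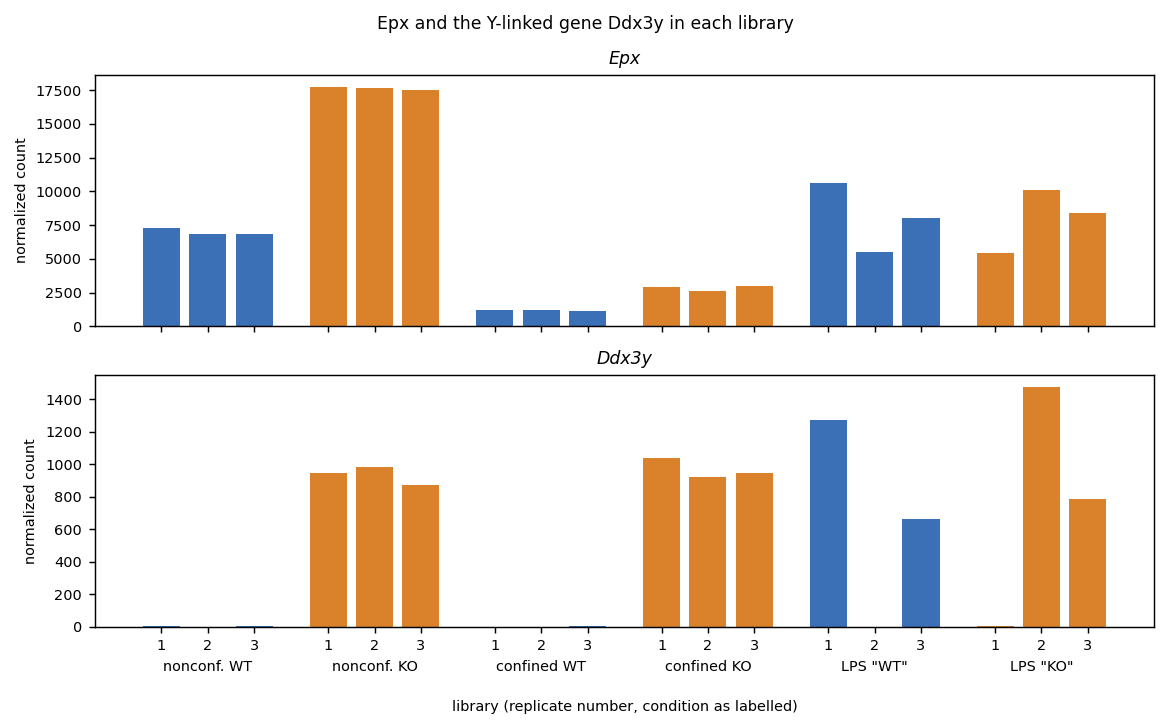
Normalized counts of *Epx* (top) and of the Y-linked gene *Ddx3y* (bottom) in each of the 18 libraries, grouped by condition as labelled, with 1 bar per library. *Epx* was highest in the 3 nonconfined cPLA_2_ KO libraries, and among the 6 LPS libraries both genes were highest in the libraries labelled cPLA_2_ WT replicate 1 and cPLA_2_ KO replicate 2.

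*Prg2* encodes the major basic protein of the granule core, which is toxic to helminths and to host cells. Nonconfined cPLA_2_ WT libraries held 17162, 17446 and 17221 normalized counts of *Prg2*, and confined cPLA_2_ WT libraries held 4157, 3865 and 3858. Nonconfined cPLA_2_ KO libraries held 41243, 38113 and 39926, and confined cPLA_2_ KO libraries held 10416, 10374 and 10709. Every confined library was below every nonconfined library, of either genotype, and within each of these treatments every cPLA_2_ KO library was above every cPLA_2_ WT library. Confinement was thus accompanied by a 4.36-fold lower level in cPLA_2_ WT DCs and a 3.79-fold lower level in cPLA_2_ KO DCs, while cPLA_2_ KO libraries were 2.30-fold higher without confinement and 2.65-fold higher with it. Folds are ratios on the scale of log2(normalized count + 1), which makes changes of low values look smaller. The sign ± gives the standard error of a log2 fold change unless SD is stated. Standard errors come from 1 fit over all 18 libraries, so they also hold the spread of the LPS libraries. The SD of *Prg2* was 25.4% of its mean in each LPS group, and at most 4.31% in nonconfined and confined groups. On the log2 scale the confinement differences were -2.13 ± 0.14 in cPLA_2_ WT DCs and -1.92 ± 0.14 in cPLA_2_ KO DCs. In these bulk libraries, fewer cells that transcribe a gene and less RNA per cell cannot be told apart.

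*Prg3* encodes a homologue of the major basic protein, and lies next to *Prg2* on chromosome 2. Its values were 498, 475 and 489 in nonconfined and 82.1, 84.9 and 82.9 in confined cPLA_2_ WT libraries. In cPLA_2_ KO libraries they were 964, 1014 and 906 without confinement and 181, 160.0 and 207 with it. The 4 groups had no value in common, and their order was that of *Prg2*: nonconfined cPLA_2_ KO highest, confined cPLA_2_ WT lowest. The log2 fold change with confinement was -2.53 ± 0.13 in cPLA_2_ WT DCs and -2.40 ± 0.13 in cPLA_2_ KO DCs, and the log2 fold change of cPLA_2_ KO over cPLA_2_ WT was 0.98 ± 0.13 in nonconfined and 1.12 ± 0.13 in confined libraries.

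*Epx* encodes eosinophil peroxidase, the haem enzyme that oxidizes halides to hypohalous acids. Nonconfined cPLA_2_ WT libraries held 7310.5, 6821 and 6885 normalized counts of *Epx*, and confined ones held 1218, 1222 and 1109.9. Nonconfined cPLA_2_ KO libraries held 17776, 17644 and 17517, and confined ones held 2949, 2621 and 2978. All 12 values were ordered by condition without overlap, again with nonconfined cPLA_2_ KO on top. The level after confinement was 5.92-fold lower in cPLA_2_ WT DCs and 6.20-fold lower in cPLA_2_ KO DCs, which corresponds to log2 fold changes of -2.57 ± 0.18 and -2.63 ± 0.18. Between genotypes, *Epx* was 2.52-fold higher in nonconfined cPLA_2_ KO libraries and 2.40-fold higher in confined cPLA_2_ KO libraries than in the cPLA_2_ WT libraries of the same treatment. Replicates were close to each other, with an SD of 3.80% of the mean in nonconfined cPLA_2_ WT and 0.732% in nonconfined cPLA_2_ KO libraries.

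The *Ear* genes encode eosinophil-associated ribonucleases, secreted enzymes of the RNase A superfamily that have multiplied in rodents and differ in number between species. For *Ear1*, nonconfined cPLA_2_ WT libraries held 2282, 2284 and 2272 normalized counts, and confined cPLA_2_ WT libraries held 467, 499 and 505. Nonconfined cPLA_2_ KO libraries held 7658, 6484 and 6834, and confined cPLA_2_ KO libraries held 1857, 1886 and 2042. As for the granule proteins, the 4 groups were separate, but confined cPLA_2_ KO libraries came close to nonconfined cPLA_2_ WT libraries. The log2 fold change of cPLA_2_ KO over cPLA_2_ WT was 1.61 ± 0.18 in nonconfined and 1.97 ± 0.18 in confined DCs, and that of confinement was -2.22 ± 0.18 in cPLA_2_ WT DCs and -1.86 ± 0.18 in cPLA_2_ KO DCs.

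The merged entry of *Ear2*, *Ear3* and *Ear12* was at 2220.4, 2307 and 2356 in nonconfined and 895, 964 and 942 in confined cPLA_2_ WT libraries. It was at 6507, 5713 and 5716 in nonconfined and 3294, 3386 and 3442 in confined cPLA_2_ KO libraries. Confined cPLA_2_ KO libraries were thus all above nonconfined cPLA_2_ WT libraries, unlike for *Ear1* or the granule proteins. The level after confinement was 2.46-fold lower in cPLA_2_ WT DCs (log2 -1.30 ± 0.17) and 1.77-fold lower in cPLA_2_ KO DCs (log2 -0.82 ± 0.17). Among confined libraries, the cPLA_2_ KO level was 3.61 times the cPLA_2_ WT level, against 2.60 times among nonconfined libraries.

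The merged entry of *Ear6* and *Ear7* showed the smallest difference with confinement among the 6 granule genes. Nonconfined cPLA_2_ WT libraries held 2868, 2939 and 2942 normalized counts, and confined ones held 1309, 1248 and 1224. Nonconfined cPLA_2_ KO libraries held 7998, 7155 and 7307, and confined ones held 5189, 5289 and 5176. Every confined library remained below each nonconfined library of its genotype, and confined cPLA_2_ KO libraries lay well above nonconfined cPLA_2_ WT libraries. The log2 difference was -1.21 ± 0.18 in cPLA_2_ WT DCs and -0.52 ± 0.18 in cPLA_2_ KO DCs. Between the genotypes, the log2 fold change was 1.36 ± 0.18 without and 2.05 ± 0.18 with confinement, the latter a 4.14-fold higher level in cPLA_2_ KO libraries.

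Reads of these ribonuclease genes may be shared between near-identical copies, so their levels are uncertain relative to each other. In the GENCODE annotation of GRCm39, the coding sequence of *Ear1* (468 bases) was 95.1% identical to that of *Ear2* (471 bases), with a longest shared run of 96 bases. *Ear6* was 87.4% identical to *Ear1* and 87.7% identical to *Ear2*, with longest shared runs of 39 bases in both cases. *Ear10*, a further family gene with 104 reads over the 18 libraries, was 97.0% identical to *Ear2* and shared a run of 185 bases with it. To show positions at which the 3 genes differ, a stretch more divergent than the whole is printed: bases 68 to 127 of the coding sequences are given 5′ to 3′, in lower case with capitals at the 15 positions where at least 1 of the genes differs. *Ear1* lies at chr14:44056225-44057096 on the minus strand, *Ear2* at chr14:44340111-44340988 on the plus strand and *Ear6* at chr14:52091156-52092097 on the plus strand of GRCm39.
Ear1: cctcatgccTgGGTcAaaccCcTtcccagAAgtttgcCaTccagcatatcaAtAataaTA
Ear2: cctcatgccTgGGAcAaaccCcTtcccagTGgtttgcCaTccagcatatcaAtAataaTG
Ear6: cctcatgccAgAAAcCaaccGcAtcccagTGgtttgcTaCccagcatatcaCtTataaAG

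The surface receptor genes did not share a single pattern. *Il5ra* encodes the α-chain of the IL-5 receptor, the signal for eosinophil differentiation and survival. Its values were 87.6, 123 and 82.5 normalized counts in nonconfined and 29.0, 12.0 and 14.2 in confined cPLA_2_ WT libraries. In cPLA_2_ KO libraries they were 171, 189 and 159 and 58.3, 51.2 and 40.1, respectively. The 4 groups did not overlap and had the order of *Prg2* and *Epx*. The counts behind confined cPLA_2_ WT values were low, at most 30 reads in a library, and replicates varied by 50.2% of the mean. The log2 fold change with confinement was -2.42 ± 0.29 in cPLA_2_ WT DCs and -1.79 ± 0.29 in cPLA_2_ KO DCs, and that of cPLA_2_ KO over cPLA_2_ WT was 0.84 ± 0.29 without and 1.47 ± 0.29 with confinement.

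*Siglecf* encodes Siglec-F, a sialic acid-binding lectin that dampens eosinophil survival when bound. Nonconfined cPLA_2_ WT libraries held 1426, 1346 and 1435 normalized counts of *Siglecf*, and confined cPLA_2_ WT libraries held 1576, 1356 and 1411. Nonconfined cPLA_2_ KO libraries held 931, 990.5 and 907, and confined cPLA_2_ KO libraries held 1174, 1029 and 1107. Confined and nonconfined cPLA_2_ WT libraries overlapped, and every cPLA_2_ KO library was below every cPLA_2_ WT library of either treatment, the reverse of the granule genes. The log2 fold change with confinement was 0.04 ± 0.10 in cPLA_2_ WT DCs, of which the sign turned to -0.18 when each library was scaled to the same total, and 0.23 ± 0.10 in cPLA_2_ KO DCs. Between genotypes it was -0.57 ± 0.10 in nonconfined and -0.39 ± 0.10 in confined libraries.

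*Ccr3* encodes the receptor for eotaxins, through which eosinophils are recruited to tissues. Nonconfined cPLA_2_ WT libraries held 82.3, 83.6 and 90.4 normalized counts of *Ccr3*, and confined cPLA_2_ WT libraries held 207, 189.5 and 173. Nonconfined cPLA_2_ KO libraries held 246, 219.7 and 221, and confined cPLA_2_ KO libraries held 75.5, 42.6 and 65.6. Every confined cPLA_2_ WT library was above every nonconfined cPLA_2_ WT library, whereas every confined cPLA_2_ KO library was below every nonconfined cPLA_2_ KO library. *Ccr3* was 2.20-fold higher after confinement in cPLA_2_ WT DCs (log2 1.14 ± 0.19) and 3.79-fold lower in cPLA_2_ KO DCs (log2 -1.92 ± 0.19). The difference between these changes was -3.06 ± 0.28 on the log2 scale. Between genotypes the order turned as well, from a 2.66-fold higher level in cPLA_2_ KO DCs without confinement to a 3.14-fold lower level with it. With at most 314 reads in any nonconfined or confined library, *Ccr3* and *Il5ra* were the genes of the group with the fewest reads over the 18 libraries.

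**Figure D2:**
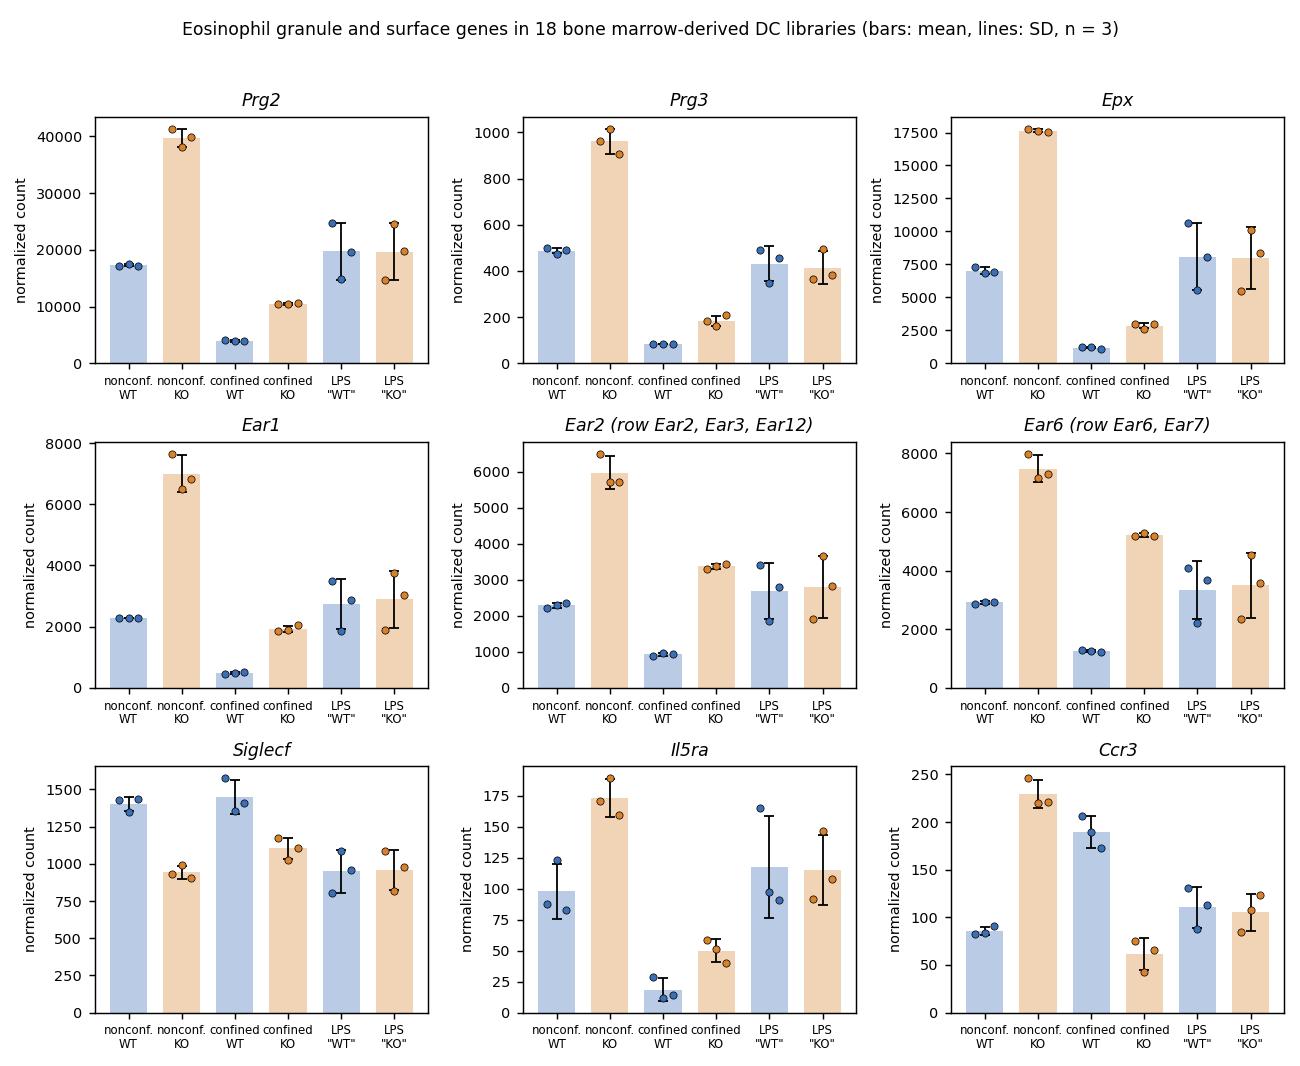
Normalized counts of the 9 genes, 1 panel per gene, in the 6 conditions as labelled. Points are libraries, bars are means and lines are SD (n = 3). *Prg2*, *Prg3*, *Epx*, *Il5ra* and the *Ear* genes are lower in confined than in nonconfined libraries of the same genotype, *Siglecf* is lower in cPLA_2_ KO than in cPLA_2_ WT libraries without LPS, and *Ccr3* is higher in confined cPLA_2_ WT than in confined cPLA_2_ KO libraries.

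For each comparison, limma was fitted over 17875 genes that reached 10 normalized counts in 3 or more libraries, a filter that all 9 genes passed. A gene was called when its p adjusted by the Benjamini-Hochberg method was under 0.05 and its absolute log2 fold change was above 1. Since these contrasts were among the values that chose the genes, the shares of all tested genes that were called are given beside the counts, and nothing is read from the counts. With confinement of cPLA_2_ WT DCs, 7 of the 9 genes were called lower, against 7.62% of all genes tested, and *Ccr3* alone of the 9 was called higher, against 11.4%. In confined cPLA_2_ KO DCs, 6 genes were called, each lower, where 5.53% of all genes were called lower and 6.43% higher. *Ear2* and *Ear6* were below the fold threshold there, with every confined library still below every nonconfined one. The median log2 fold change of the 9 genes was -2.13 in cPLA_2_ WT DCs and -1.86 in cPLA_2_ KO DCs, beside -0.01 and 0.01 over all genes tested.

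Between genotypes, 6 of the 9 genes were called in nonconfined DCs, each higher in cPLA_2_ KO, where 0.85% of all genes were called higher and 0.302% lower. *Prg3* and *Il5ra* were higher in each cPLA_2_ KO library but not called there, and *Siglecf* was lower in each cPLA_2_ KO library. In confined DCs, 7 genes were called higher in cPLA_2_ KO against 2.79% of all genes, and *Ccr3* was called lower against 7.31%. The median log2 fold change of the 9 genes was 1.33 in nonconfined and 1.41 in confined DCs, where the median over all genes was 0.00 and 0.04. As to whether the change with confinement differed between genotypes, *Ccr3* was the 1 gene of the 9 called, in the lower direction, where 6.56% of all genes were called lower and 1.11% higher. For the other 8 genes this difference ranged from -0.07 for *Epx* to 0.69 for *Ear6*. The sign for *Epx* turned to 0.12 when libraries were scaled to the same total.

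Scaling every library to the same total moved the median of all genes from -0.01 to -0.23 for confinement of cPLA_2_ WT DCs, from 0.04 to 0.19 for cPLA_2_ KO against cPLA_2_ WT in confined DCs and from 0.05 to 0.24 for the difference between genotypes. Relative to that median, the confinement changes in cPLA_2_ WT DCs were -2.12 for *Prg2*, -2.56 for *Epx* and 1.15 for *Ccr3*. *Ccr3* on its own was 0.92 under that scaling, below the fold threshold. In the 4 comparisons of confinement and genotype without LPS, the sign of the other 8 genes was the same under the authors' scaling, the same-total scaling and TMM, and *Siglecf* in confined cPLA_2_ WT DCs was the exception.

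**Figure D3:**
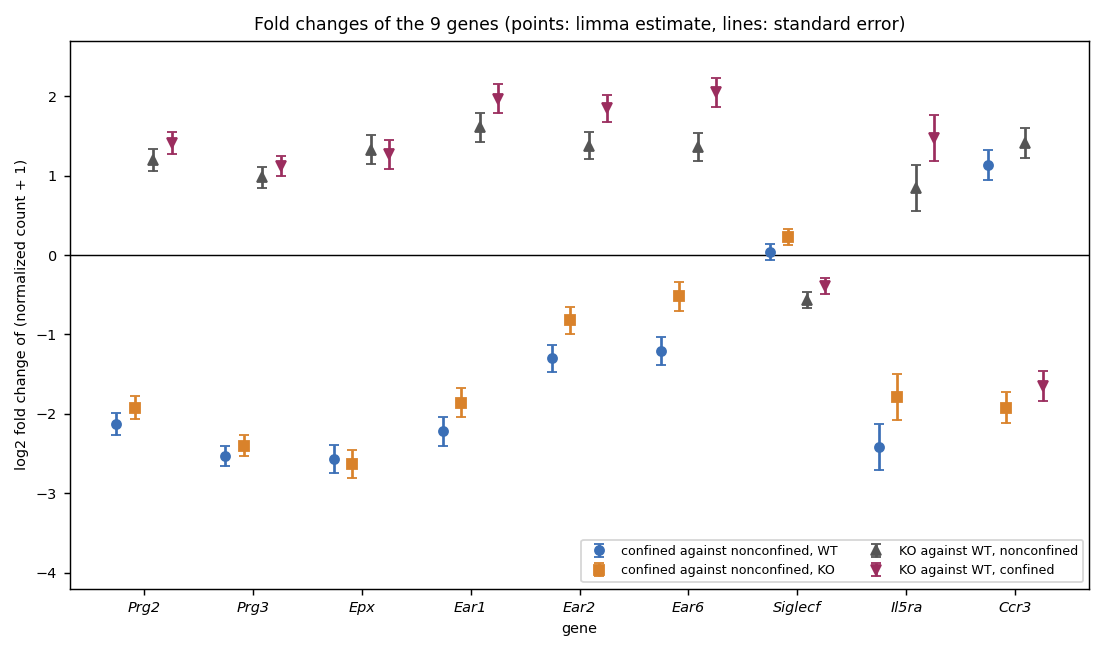
Log2 fold changes of the 9 genes on the scale of log2(normalized count + 1) in 4 comparisons. Points are limma estimates for groups of 3 libraries, and lines are standard errors from 1 fit over all 18 libraries, LPS libraries included. In *Ear2* and *Ear6* the lower level with confinement is smaller than in *Prg2*, *Prg3* and *Epx*, and *Ccr3* changes sign between the genotypes.

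After LPS, the members varied more between libraries with the same label than between labels. The LPS libraries labelled cPLA_2_ WT held 24790.4, 14795 and 19549 normalized counts of *Prg2*, and the LPS libraries labelled cPLA_2_ KO held 14646, 24643 and 19714. For *Epx* the values were 10640.3, 5535 and 8046 in those labelled cPLA_2_ WT and 5455, 10123 and 8367 in those labelled cPLA_2_ KO. In both genes the labelled groups overlapped almost fully, and the libraries labelled cPLA_2_ WT replicate 1 and cPLA_2_ KO replicate 2, which also had the most *Ddx3y*, were highest. *Ear1* was at 3498, 1871 and 2876 and 1899, 3745 and 3044, the entry of *Ear2* at 3414, 1862 and 2804 and 1914, 3655 and 2829, and that of *Ear6* at 4108, 2212 and 3668 and 2353, 4542 and 3596. *Prg3* was at 492, 349 and 454 and 363, 497 and 384, and *Il5ra* at 165, 97.0 and 90.5 and 91.2, 146 and 107. In these genes too, the libraries labelled cPLA_2_ WT replicate 1 and cPLA_2_ KO replicate 2 were the highest of their label. *Siglecf* ran the other way, with 801, 1087 and 962 and 1085, 816 and 977, so that these libraries had the lowest values. *Ccr3* was at 131, 87.9 and 113 in libraries labelled cPLA_2_ WT and at 84.9, 108 and 123 in libraries labelled cPLA_2_ KO, without such an order among the latter. The part of genotype, donor or label in these differences was not tested.

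Between the LPS groups as labelled, limma, edgeR and DESeq2 called 0 of the 9 genes, and 0 had an unadjusted p under 0.05 by limma, against 0.0% of all genes tested called higher and 0.0% called lower. Over all genes, limma gave 890 with an unadjusted p under 0.05 and 0 called, edgeR 822 and 0, and DESeq2 814 and 0. The log2 fold changes of the 9 genes ranged from -0.07 to 0.07. Against nonconfined cPLA_2_ WT libraries, the LPS libraries labelled cPLA_2_ WT had log2 fold changes between -0.57 for *Siglecf* and 0.35 for *Ccr3*. Of the 9 genes 0 were called by limma, edgeR or DESeq2, with 1 at an unadjusted p under 0.05 by limma, where 15.0% of all genes were called higher and 12.3% lower. For 7 of the genes, *Prg3* and *Siglecf* aside, the sign of this difference turned under the same-total scaling, which moved the median of all genes from 0.03 to -0.48. Against nonconfined cPLA_2_ KO libraries, 7 genes were called in the LPS libraries labelled cPLA_2_ KO, each lower, where 12.9% of all genes were called lower and 15.0% higher. That count was 2 without the library labelled LPS cPLA_2_ KO replicate 1, and 0 with the genotype labels pooled in both treatments, an alternative added after the data were seen. These differences from the nonconfined libraries of a genotype rest on LPS libraries in which *Pla2g4a* was in the reverse order of the labels.

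Taken as a sum, the 9 genes held 33938, 33823 and 33773 normalized counts in nonconfined cPLA_2_ WT and 83493, 77522 and 79494 in nonconfined cPLA_2_ KO libraries. In confined DCs the sums were 9940.4, 9439 and 9318 for cPLA_2_ WT and 25194, 24839 and 25767 for cPLA_2_ KO. These sums made up 0.0992 ± 0.00031% (SD, n = 3) of all normalized counts in nonconfined cPLA_2_ WT and 0.229 ± 0.0064% in nonconfined cPLA_2_ KO libraries. Confined libraries had 0.0240 ± 0.00053% and 0.0705 ± 0.0012%, respectively. *Prg2* was the largest contributor, with 51.0 ± 0.51% (SD, n = 3) of the sum in nonconfined cPLA_2_ WT and 49.6 ± 0.56% in nonconfined cPLA_2_ KO libraries. In confined DCs its part was smaller in both genotypes, at 41.4 ± 0.44% and 41.6 ± 0.21%. *Siglecf* made up 4.14 ± 0.14% of the sum in nonconfined and 15.1 ± 0.75% in confined cPLA_2_ WT libraries, as the granule genes were lower there and *Siglecf* was not.

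The proportions among the granule genes also differed between conditions. Per 100 counts of *Prg2*, nonconfined libraries had 40.6 ± 1.8 (SD, n = 3) counts of *Epx* in cPLA_2_ WT DCs and 44.4 ± 1.7 in cPLA_2_ KO DCs, and confined libraries had 29.9 ± 1.5 and 27.1 ± 1.6. The *Ear6* entry moved the opposite way, from 16.9 ± 0.19 to 31.8 ± 0.41 counts per 100 of *Prg2* in cPLA_2_ WT DCs and from 18.8 ± 0.55 to 49.7 ± 1.3 in cPLA_2_ KO DCs. *Ear1* per 100 counts of the *Ear2* entry went from 99.4 ± 3.2 to 52.5 ± 0.95 in cPLA_2_ WT DCs and from 117 ± 3.1 to 57.1 ± 1.9 in cPLA_2_ KO DCs. Within each of these ratios, the nonconfined and confined means lay apart by more than their SDs in both genotypes. In LPS libraries labelled cPLA_2_ WT and cPLA_2_ KO there were 40.5 ± 2.8 and 40.3 ± 2.7 counts of *Epx* per 100 of *Prg2*, and *Ear1* was at 102 ± 1.2 and 103 ± 4.2 per 100 of *Ear2*. *Prg3* per 100 of *Prg2* was at 2.22 ± 0.21 and 2.15 ± 0.29 there, against 2.82 ± 0.092 and 2.42 ± 0.21 in nonconfined libraries.

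Levels of different genes were compared as normalized counts per kilobase of transcript. The merged entries named here as *Ear2* and *Ear6* were divided by the transcript length of *Ear2* or *Ear6* alone. Reads may also be shared between copies, so the ribonuclease levels are uncertain relative to each other. In nonconfined cPLA_2_ WT libraries *Prg2* was highest, at 20542 ± 178 (SD, n = 3) per kilobase, followed by *Ear6* at 4090.5 ± 58.9, *Ear1* at 3197 ± 8.87, *Ear2* at 3169 ± 95.1 and *Epx* at 2605 ± 99.0. *Ear1* and the merged *Ear2* entry did not differ beyond their spread. *Siglecf* was at 536 ± 18.8 and *Prg3* at 514 ± 12.4 per kilobase, which also overlapped within their SDs, whereas *Il5ra* and *Ccr3* were far lower, at 22.9 ± 5.13 and 26.1 ± 1.33. In confined cPLA_2_ KO libraries the order among ribonucleases was wider, with *Ear6* at 7318 ± 86.6, *Ear2* at 4660.2 ± 103 and *Ear1* at 2705 ± 139.6 per kilobase. *Epx* was at 1059.6 ± 73.7 per kilobase in these libraries, below each of the 3 ribonuclease entries.

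Ordered by mean over the 6 conditions, nonconfined cPLA_2_ KO libraries had the highest level of every gene except *Siglecf*, with overlap of *Il5ra* with LPS libraries labelled cPLA_2_ WT. For *Siglecf*, confined cPLA_2_ WT libraries were highest and overlapped with nonconfined cPLA_2_ WT libraries. Confined cPLA_2_ WT libraries had the lowest level of *Prg2*, *Prg3*, *Epx*, *Ear1*, *Ear2*, *Ear6* and *Il5ra*, without overlap with the next condition. For *Ccr3*, confined cPLA_2_ KO libraries were lowest, without overlap with nonconfined cPLA_2_ WT libraries. In the middle of the order, the LPS groups and nonconfined cPLA_2_ WT libraries overlapped for *Prg2*, *Prg3*, *Epx*, *Ear1*, *Ear2*, *Ear6*, *Il5ra* and *Ccr3*. *Ear2* and *Ear6* differed from the rest in that confined cPLA_2_ KO libraries came second, overlapping with LPS libraries for *Ear2* and not for *Ear6*.

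Over the 18 libraries, which share the 6 conditions and are not independent draws, Pearson's r of log2(normalized count + 1) with *Epx* was 0.992 for *Prg2*, 0.989 for *Prg3*, 0.960 for *Ear1* and 0.954 for *Il5ra*. It was 0.829 for the *Ear2* entry, 0.746 for the *Ear6* entry, 0.174 for *Ccr3* and -0.668 for *Siglecf*. Among 11428 other genes whose mean reached 50 normalized counts, those most like *Epx* were the 10 genes *Prss34*, *Aif1*, *Mcpt8*, *Ddr1*, *Cpa3*, *Adam23*, *Scube1*, *Akr1c12*, *Fut8* and *Akr7a5*, with r between 0.956 and 0.970. Of these, *Prss34*, *Mcpt8* and *Cpa3* encode proteases of basophils and mast cells. With libraries scaled to the same total, 5 of the 10 were still among the first 10, against 9 with TMM. *Prss34* went from 2881 normalized counts in nonconfined to 868 in confined cPLA_2_ WT libraries, and from 4172 to 1989 in cPLA_2_ KO libraries, as means of 3.

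Other genes of eosinophil biology were described as lists, by calls over all genes tested, and genes named from them as called had a mean of 100 normalized counts or more over the 18 libraries, *Gata1* aside. The counts stand beside shares of all genes tested that were called higher and lower of 11.4% and 7.62% with confinement of cPLA_2_ WT DCs, 6.43% and 5.53% with confinement of cPLA_2_ KO DCs, 0.85% and 0.302% between genotypes without confinement and 2.79% and 7.31% with it. For 9 transcription factors and regulators of eosinophil development, the calls with confinement were 1 lower in cPLA_2_ WT DCs and 2 lower in cPLA_2_ KO DCs, with median log2 fold changes of -0.38 and -0.45. *Gata1*, the lineage-defining factor, fell with confinement in cPLA_2_ WT DCs by 2.16 on the log2 scale, from 56.2 ± 10.0 to 12.7 ± 5.81 normalized counts (SD, n = 3). It was named after its values were seen, and confined cPLA_2_ WT libraries held at most 16 reads of it. In cPLA_2_ KO DCs *Gata1* fell from 84.3 ± 7.76 to 41.2 ± 1.86, a log2 fold change of -1.01 ± 0.33, and it was the 1 gene of the list called between genotypes, with a log2 fold change of 1.74 ± 0.33 in confined DCs. *Id2*, a helix-loop-helix inhibitor, changed by -1.02 ± 0.06 in confined cPLA_2_ KO DCs. *Spi1*, which encodes PU.1, was the most abundant gene of the list. For 8 tested genes of the IL-5, IL-3 and GM-CSF receptor pathway, the calls were 3 higher in confined cPLA_2_ WT DCs, 1 higher in confined cPLA_2_ KO DCs and 3 lower in cPLA_2_ KO against cPLA_2_ WT confined DCs, with *Csf2* the largest in each and medians of 0.58 and 0.27 with confinement. *Csf2*, the gene of GM-CSF, was at 0 in nonconfined cPLA_2_ WT libraries, 39.6 ± 5.80 in confined cPLA_2_ WT libraries and 10.4 ± 4.28 in confined cPLA_2_ KO libraries. It reached the mean of 100 only through the LPS libraries, with means of 1225 (labelled cPLA_2_ WT) and 1339 (labelled cPLA_2_ KO). No nonconfined or confined library held more than 48 reads of *Csf2*, so its changes there start near the floor. The transcripts of *Il5* and *Il3* had 12 and 16 reads over all 18 libraries.

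Among 3 tested genes of CCR3 ligands, the calls were 2 higher in confined cPLA_2_ WT DCs, 1 higher and 1 lower in confined cPLA_2_ KO DCs, and 1 lower between the genotypes in confined DCs, with medians of 1.26 and -0.42 with confinement. *Ccl5* changed in the same directions as *Ccr3*, with log2 fold changes of 1.26 ± 0.06 in cPLA_2_ WT DCs and -1.98 ± 0.06 in cPLA_2_ KO DCs. It was named for its calls in these same libraries, so these values are a description. *Ccl11*, the gene of eotaxin-1, had 0 reads in all 18 libraries. For 13 tested genes of other eosinophil surface proteins and lipid mediator enzymes, the calls were 1 higher and 7 lower in confined cPLA_2_ WT DCs, 4 lower in confined cPLA_2_ KO DCs, 1 higher between genotypes without and 2 higher and 2 lower with confinement. The median log2 fold change of this list was -1.22 in cPLA_2_ WT DCs and -0.91 in cPLA_2_ KO DCs. *Alox15*, a 15-lipoxygenase found in eosinophils and some macrophages, had the pattern of *Epx*, with 945 ± 29.6 and 2356 ± 28.9 normalized counts in nonconfined cPLA_2_ WT and cPLA_2_ KO and 220.4 ± 14.1 and 692 ± 35.4 in confined cPLA_2_ WT and cPLA_2_ KO libraries (SD, n = 3). *Itga4*, an integrin chain, was lower in confined cPLA_2_ KO than in confined cPLA_2_ WT DCs, with a log2 fold change of -1.66 ± 0.07. For 4 tested genes among other *Ear* and RNase A genes, the calls were 1 lower in confined cPLA_2_ WT DCs and 2 lower in confined cPLA_2_ KO DCs, with medians of -1.40 and -1.44. Between genotypes the list had 1 of 4 at an unadjusted p under 0.05 by limma, and 0 called by limma, edgeR or DESeq2 in nonconfined DCs, and 2 of 4 at an unadjusted p under 0.05 by limma, and 0 called by limma, edgeR or DESeq2 in confined DCs. *Rnase6*, a ribonuclease of monocytes, fell from 3356 ± 142 to 883 ± 5.76 normalized counts in cPLA_2_ WT DCs, and the merged entry of *Ear4* and *Ear14* had 0 reads.

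Markers of other cells that such cultures can hold were set beside the 9 genes. Calls of these marker lists stand beside the same shares of all genes tested as those of the lists above. The 14 neutrophil markers had summed levels of 258697, 263558 and 261774 normalized counts in nonconfined and 172574, 164756 and 162750.3 in confined cPLA_2_ WT libraries. In cPLA_2_ KO libraries the sums were 394727, 358413 and 383097 and 362159, 371503 and 357845. Every nonconfined cPLA_2_ KO library was above every nonconfined cPLA_2_ WT library, as for the granule genes, but confined and nonconfined cPLA_2_ KO libraries overlapped. The calls with confinement were 8 lower in cPLA_2_ WT DCs and 1 lower in cPLA_2_ KO DCs, where 7.62% and 5.53% of all genes were called lower. Those between genotypes were 2 higher without and 11 higher with confinement, where 0.85% and 2.79% of all genes were called higher. The medians were -1.14, -0.44, 0.43 and 1.28 in that order. *Elane* was lowest relative to nonconfined cPLA_2_ WT DCs, at -2.86 ± 0.21 on the log2 scale, *Mpo* was the gene called in cPLA_2_ KO DCs, at -1.34 ± 0.14, and *Ly6g* differed between genotypes by 1.01 ± 0.19 without and 1.89 ± 0.19 with confinement. *S100a9* was the most abundant of the list, and none of its genes was at 0 reads. The LPS libraries had sums of 322448, 304504 and 306244 (labelled cPLA_2_ WT) and 290756, 326289 and 308151 (labelled cPLA_2_ KO).

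The 11 mast cell and basophil markers, 9 of them tested, had sums of 9903, 10054 and 10099 in nonconfined and 16441, 15793 and 16324 in confined cPLA_2_ WT libraries, and of 15058, 14472 and 14652 and 8572, 8294 and 8579 in cPLA_2_ KO libraries. The most abundant gene, *Hdc*, set the higher sum of confined cPLA_2_ WT libraries, with 736 ± 7.42 normalized counts without and 12369.5 ± 272 with confinement (SD, n = 3). Calls with confinement were 1 higher and 6 lower in cPLA_2_ WT DCs and 6 lower in cPLA_2_ KO DCs, and 4 higher and 1 lower between genotypes in confined DCs, with medians of -1.64, -1.08 and 0.59. Between genotypes without confinement there were 6 of 9 at an unadjusted p under 0.05 by limma, and 0 called by limma, edgeR or DESeq2. *Ms4a2*, a chain of the IgE receptor, fell in both genotypes, with log2 fold changes of -2.21 ± 0.13 and -1.44 ± 0.13. The LPS libraries had sums of 18674, 20858 and 19547 and 21289.6, 18934 and 19959.8 by label. *Tpsab1* had 0 reads and *Mcpt4* had 2 reads in all. The part of these cell types in the levels of the 9 genes was not tested.

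For 12 tested genes typical of alveolar macrophages, which depend on GM-CSF and carry Siglec-F, the calls with confinement were 2 higher in cPLA_2_ WT DCs and 3 higher in cPLA_2_ KO DCs. Between genotypes they were 2 higher without confinement and 1 higher and 1 lower with it, and the medians of these 4 comparisons were 0.33, 0.32, 0.20 and 0.64. *Olr1* rose with confinement, by 3.67 ± 0.12 and 2.62 ± 0.12, *Marco* was higher in cPLA_2_ KO DCs by 2.21 ± 0.08 and 1.35 ± 0.08, and *Krt79* had 0 reads. Their sum, led by *Chil3*, was higher in cPLA_2_ KO than in cPLA_2_ WT libraries, from 151312, 156350.5 and 154456 to 178532, 171092 and 177655 without and from 184937, 175492 and 175384 to 223791, 222594 and 226532 with confinement, while *Siglecf* was lower. For 9 general macrophage markers the calls with confinement were 1 lower in cPLA_2_ WT DCs and 3 lower in cPLA_2_ KO DCs, and 1 lower between genotypes in confined DCs, *Fcgr1* at -1.21 ± 0.08. Medians with confinement were -0.55 and -0.87, and between genotypes in nonconfined DCs there were 5 of 9 at an unadjusted p under 0.05 by limma, and 0 called by limma, edgeR or DESeq2. For 12 DC markers the calls were 1 higher and 3 lower in confined cPLA_2_ WT DCs and 5 lower in confined cPLA_2_ KO DCs, with medians of -0.29 and -0.83, and 4 lower between genotypes in confined DCs. Without confinement there were 7 of 12 at an unadjusted p under 0.05 by limma, and 0 called by limma, edgeR or DESeq2. *Ccr7* rose by 1.05 ± 0.05 in confined cPLA_2_ WT DCs and differed by -1.88 ± 0.05 in cPLA_2_ KO confined DCs. *Ciita* fell in cPLA_2_ WT DCs (-1.03 ± 0.07) and was also called lower in cPLA_2_ KO DCs, from a mean of 9135 to 4520 normalized counts. *Batf3* fell in cPLA_2_ KO DCs (-1.63 ± 0.10). The DC markers *Itgax*, *Cd74* and *H2-Aa* were detected in each library, with *Itgax* at 6281 ± 109.6 normalized counts in nonconfined cPLA_2_ WT libraries (SD, n = 3).

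By position in GRCm39, *Prg2* (chr2:84810803-84813976) and *Prg3* (chr2:84818539-84824230) lie 4563 bases apart on the plus strand, each with 6 exons. *Epx* (chr11:87754824-87766362, minus strand) has 13 exons, *Siglecf* (chr7:43000763-43008955, plus strand) 9, *Il5ra* (chr6:106687336-106725998, minus strand) 13 and *Ccr3* (chr9:123822006-123831726, plus strand) 2. *Ear1* and *Ear2* are 283.0 kb apart and *Ear6* lies 7750.2 kb beyond *Ear2* on chromosome 14, each with 2 exons. No other entry of the table overlaps any of the 9 genes. In the GENCODE annotation, antisense transcripts lie across *Ear1* (*Gm49965*) and *Ear2* (*Gm49099*). The libraries were made with strand-specific kits, but whether the counting used strand is not given in the sources used here, so reads of these gene pairs may not be separated.

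Since most of the 9 genes differed together between conditions, their promoters were searched for short motifs of factors known in eosinophil development. RefSeq promoters (GRCm38.p6, 250 bases before to 50 after the start of transcription) were at hand for 8 of the 9 genes, all but *Prg2*. The motifs, on either strand, were AGATAA for GATA factors, TTNNGNAA for C/EBP factors, GAGGAA for PU.1 and TTCNNNGAA for STAT factors. Among 32851 promoters of the same length they occurred in 11.2%, 40.7%, 28.3% and 8.3%, respectively. AGATAA was in the promoters of *Il5ra* and *Ccr3*. TTNNGNAA was in those of *Prg3*, *Ear1*, *Ear2*, *Ear6*, *Siglecf* and *Ccr3*, and GAGGAA in those of *Siglecf*, *Il5ra* and *Ccr3*. TTCNNNGAA was in none of the 8, and the *Epx* window had none of the 4 motifs. A match is a description of the letters only. The promoters of *Ear1* and *Ear2* were 98.7% identical, and that of *Ear6* was 86.6% identical to *Ear1* and 86.2% to *Ear2*. These 3 are shown because the genes share their start regions but differed in the size of the change with confinement, and the promoters of *Il5ra* and *Ccr3* because these receptor genes went opposite ways in confined cPLA_2_ WT DCs. Each runs 5′ to 3′ on the strand of its gene, with capitals for matches to AGATAA, TTNNGNAA or GAGGAA. In GRCm38.p6 they lie at chr14:43819590-43819889, minus strand (*Ear1*), chr14:44102404-44102703, plus strand (*Ear2*), chr14:51853518-51853817, plus strand (*Ear6*), chr6:106748988-106749287, minus strand (*Il5ra*) and chr9:124021721-124022020, plus strand (*Ccr3*).
Ear1: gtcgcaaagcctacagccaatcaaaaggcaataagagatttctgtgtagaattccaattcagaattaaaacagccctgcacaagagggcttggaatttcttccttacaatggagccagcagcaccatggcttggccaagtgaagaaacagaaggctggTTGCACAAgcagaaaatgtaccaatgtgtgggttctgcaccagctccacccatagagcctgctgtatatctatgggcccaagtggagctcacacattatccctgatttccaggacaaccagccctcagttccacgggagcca
Ear2: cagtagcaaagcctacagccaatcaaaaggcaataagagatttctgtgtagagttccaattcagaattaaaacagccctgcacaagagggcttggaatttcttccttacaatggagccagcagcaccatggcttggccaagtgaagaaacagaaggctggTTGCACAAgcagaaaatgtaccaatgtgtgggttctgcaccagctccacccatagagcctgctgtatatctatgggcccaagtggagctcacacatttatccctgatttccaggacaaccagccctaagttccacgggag
Ear6: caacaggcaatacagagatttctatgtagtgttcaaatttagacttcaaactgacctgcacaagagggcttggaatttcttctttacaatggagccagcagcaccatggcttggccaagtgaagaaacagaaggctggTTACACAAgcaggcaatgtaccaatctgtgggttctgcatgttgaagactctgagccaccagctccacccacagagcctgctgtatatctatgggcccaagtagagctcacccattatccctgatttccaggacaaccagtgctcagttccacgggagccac
Il5ra: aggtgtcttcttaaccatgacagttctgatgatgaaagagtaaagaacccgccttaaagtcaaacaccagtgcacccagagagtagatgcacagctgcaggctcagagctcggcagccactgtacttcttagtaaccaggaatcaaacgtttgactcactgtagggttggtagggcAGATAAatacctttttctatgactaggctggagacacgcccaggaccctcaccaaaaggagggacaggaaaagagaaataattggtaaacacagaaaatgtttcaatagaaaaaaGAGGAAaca
Ccr3: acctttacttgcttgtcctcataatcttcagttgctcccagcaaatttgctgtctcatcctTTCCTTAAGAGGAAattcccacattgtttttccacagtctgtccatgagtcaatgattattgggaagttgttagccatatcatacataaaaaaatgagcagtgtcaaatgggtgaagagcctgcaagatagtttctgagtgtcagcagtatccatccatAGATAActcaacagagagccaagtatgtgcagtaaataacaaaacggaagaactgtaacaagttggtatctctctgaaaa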

How the data were processed

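Bulk RNA-seq of 18 libraries of bone marrow-derived DCs was analysed, in 6 conditions taken from titles and treatment entries of the labels. Protocol text in the labels mentions LPS for each sample, and was not followed for the groups. Names of 2 library kits are given without a map to libraries. The deposited signal values are normalized counts that the authors made by mapping reads to mm39 with STAR 2.7.5a, counting per gene (featureCounts 1.5.0 is among the tools in the submitters' processing notes) and dividing by DESeq2 size factors in R 3.5.3. The members and lists were chosen with earlier results of these data known.

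The program limma 3.58.1 (eBayes with a trend, R 4.3.3) was run on log2 of the normalized count plus 1, in 1 fit over 18 libraries with a mean per condition, for genes that reached 10 normalized counts in 3 or more libraries. Calls needed a Benjamini-Hochberg adjusted p under 0.05, and a log2 fold change above 1 or under -1. Whole reads were recovered from the normalized counts for edgeR 4.0.16 and DESeq2 1.42.0. Of all values, 100% were whole within 1e-06 of a read. Depths were 33027230 to 61300021 reads. Alternatives were other pseudocounts (0.5 and 5), filters (none and 100), same-total and TMM scaling, edgeR, DESeq2, the compared groups alone, a replicate block, 2 other thresholds and leaving out each library. Pooled genotype labels and a fit without LPS libraries were added after the data were seen. Residuals of libraries with the same number were not all correlated above 0.1 in any comparison, so numbers were not used as pairs. Named genes were the 9 members, *Pla2g4a*, *Xist* and *Ddx3y*, in each of 10 lists the called gene with the largest rise and fall at a mean of at least 100 normalized counts, genes at 0 reads, and the 10 genes most correlated with *Epx*. Other genes of the lists were named outside this rule: the most abundant, defining markers, genes with few reads, and *Gata1*, which was named after its values were seen. Of the genes so chosen, 1 is not reported here. The scripts were tested on simulated data. Figures were drawn with matplotlib 3.10.9.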

Additional observations from a re-analysis of the deposited data

Results flagged for a closer look

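Confinement went with opposite changes of *Ccr3* in the 2 genotypes: the log2 fold change was 1.14 in cPLA_2_ WT DCs, where each confined library was above each nonconfined one, and -1.92 in cPLA_2_ KO DCs, where each was below. The gene was chosen with these values known, and the difference was not tested on data that the choice did not use.

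Among named genes of the lists, the change with confinement also differed between genotypes by limma's interaction term. The term is given as cPLA_2_ KO minus cPLA_2_ WT on the log2 scale. These genes were named from the same libraries, mostly for their calls, so the values are a description. The differences were not tested on data that the choice did not use. The term was positive for the neutrophil protease gene *Elane* (2.02) and for *Mpo* (1.49). Negative values were found for *Hdc* (-3.58), *Ccl5* (-3.24), *Csf2* (-2.86), *Ccr7* (-1.93), *Ccl22* (-1.56), *Itga4* (-1.53), *Batf3* (-1.22), *Fcgr1* (-1.17) and *Olr1* (-1.04). Over all 17875 genes tested, 198 were called higher and 1173 lower for this term. Higher calls were thus 14.4% of all calls, and 33.8% with the same total per library, so mostly negative terms are not particular to these genes. *Csf2* was at 0 in nonconfined cPLA_2_ WT libraries, so that its value depends on the pseudocount.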

How the results depend on the processing

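Of the counts of members called, 305 values under the alternatives stayed within 1.5 times of the value reported, and no called value changed sign. Log2 fold changes of the members moved by less than 1 SD in 1335 cases and by more in 78. For the other named genes, 3969 values kept their side of the threshold, 88 passed it newly and 25 no longer did.

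With the same total per library, 0 members were called higher with confinement in cPLA_2_ WT DCs, as *Ccr3* fell under the fold threshold, and 1 was called lower in LPS libraries labelled cPLA_2_ WT against nonconfined cPLA_2_ WT libraries; the shift of the median given in the report goes the same way. With the adjusted p alone, which drops the fold threshold, 1 member was called higher for the difference between genotypes in the change with confinement (1823 of 17875 tested genes), 1 lower between genotypes in nonconfined DCs (734 genes), 2 lower between genotypes in confined DCs (3682 genes) and 1 lower after LPS in libraries labelled cPLA_2_ WT (5258 genes). With the thresholds of the study's methods (unadjusted p of 0.05 and fold change of 1.5), 1 member was called higher for the difference between genotypes, among 1019 genes. Pooling the genotype labels, added after the data were seen, left 0 members called lower after LPS against nonconfined cPLA_2_ KO libraries. Leaving out each library in turn gave 2 to 7 members called lower in that comparison, the 2 without LPS cPLA_2_ KO replicate 1, and the cause was not tested. It gave 6 to 7 called higher between genotypes in nonconfined DCs, and the other counts did not move. With the replicate block, 7 members were called lower and 1 higher in confined cPLA_2_ WT DCs, 6 lower in confined cPLA_2_ KO DCs, 6 higher between genotypes in nonconfined and 7 higher and 1 lower in confined DCs, and no call count changed by over 1.5 times. Residual correlations of libraries with the same number ranged from -0.142 to 0.338.

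Over all genes tested, the share of calls that were higher went from 59.9% to 42.7% with the same total per library for confinement of cPLA_2_ WT DCs, from 14.4% to 33.8% for the difference between genotypes, from 27.6% to 41.6% between genotypes in confined DCs, and from 55.0% and 53.9% to 27.7% for LPS in cPLA_2_ WT- and cPLA_2_ KO-labelled libraries. *Il5ra* and *Ccr3* had the fewest reads of the 9 genes over the 18 libraries, which limits their values. Other limits are the 3 libraries per condition, the donors that go with genotype, and LPS libraries of which *Ddx3y* differed within a label.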
